A study of Mus musculus with 18 samples.

Results

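The data describe 10 genes of cytokine signalling in neutrophils of lupus-prone mice: the kinase genes Jak1, Jak2 and Tyk2, the transcription factor genes Stat3, Stat5a, Stat5b and Stat6, and Socs3, Cish and Pim1, which STATs are known to switch on. They were chosen by symbol, as the 10 rows of those names among the 17941 gene symbols of the count table, and all 10 were among the 10104 symbols with enough counts to be tested. The mice were untreated females of the NZBWF1/J strain (written NZBWF1J in the sample labels), hybrid animals in which lupus-like disease appears as they age, sampled at 14, 20 or 26 weeks, with 6 biological replicates, taken here as 6 mice, and 6 RNA sequencing libraries at each age. The cells came from the spleen and were sorted as single live cells with the surface phenotype DAPI-, Ly6B+, Ly6C intermediate, CD11b+ and Ly6G+. All groups share strain, sex, organ and sort, no other strain stood as a control, and age and stage of disease cannot be told apart.

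A cytokine that binds its receptor activates Janus kinases (JAKs) held on the receptor's inner tails. The kinases phosphorylate STAT proteins, which pair, enter the nucleus and bind DNA at short palindromic sites. SOCS proteins and CIS, the product of Cish, are made in response and restrain the receptor or its kinase, so their transcripts are commonly read as a trace of recent signalling. In neutrophils, granulocyte colony-stimulating factor (G-CSF) acts through the receptor gene Csf3r, JAKs and STAT3, and Socs3 limits that signal, while STAT6 relays interleukin-4 (IL-4) and interleukin-13.

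On the mouse genome (GRCm38, gene models of GENCODE M21), Socs3 spans 117966079 to 117970047 on chromosome 11 (minus strand), Pim1 29490753 to 29496112 on chromosome 17 (plus) and Cish 107296026 to 107302784 on chromosome 9 (plus). Jak1 spans 101152367 to 101265282 on chromosome 4 (minus), Jak2 29251828 to 29313080 on chromosome 19 (plus) and Tyk2 21104068 to 21131243 on chromosome 9 (minus). Stat6 spans 127642986 to 127660957 on chromosome 10 (plus), and the other STAT genes lie together on chromosome 11, as described with them.

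Library totals ran from 5546624 to 17256379 gene counts. Levels are CPM, counts per library size with TMM factors, and log2 fold changes are fitted values ± SE from edgeR's quasi-likelihood test, called where the Benjamini-Hochberg adjusted p over all 10104 genes was under 0.05. All 13 neutrophil markers of a fixed list were present and tested, and their summed level was 146520 to 209625 CPM at 14 weeks, 51922 to 124749 CPM at 20 weeks and 163109 to 330925 CPM at 26 weeks. Ngp and Ltf had means of 54833 and 50645 CPM at 14 weeks, where the sum had a mean of 180234 CPM. At 20 against 14 weeks 10 markers were lower, 1 (Csf3r) was higher and 2 were not called. At 26 against 14 weeks 6 were higher and 4 lower, and at 26 against 20 weeks 8 were higher and 1 (Csf3r) lower. Replicate 3 of 20 weeks had counts in 8119 genes, against 10357 or more in every library of the other ages. The labels give no run or batch, so none could be entered in a fit. In such bulk samples fewer cells of a type and less RNA per cell cannot be told apart.

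Promoter windows of 300 bases, from 250 before to 50 after the RefSeq start of transcription, were searched for the STAT palindrome TTCNNNGAA, which reads the same on both strands. RefSeq (GRCm38.p6) held 13 windows for the 10 genes, and 2 of them had the motif, those of Socs3 and Cish, as did 8.3% of all 32851 windows. A form of the palindrome with 1 more base in its middle has the spacing that STAT6 is known to prefer. It was counted apart from the first form on both strands and was in 0 of the 13 windows and in 6.95% of all windows. The windows of Socs3 (chr11:117969317-117969616, minus strand) and Cish (chr9:107296409-107296708, plus strand) are shown because they are the members with a match, with the matches in capitals.
Socs3: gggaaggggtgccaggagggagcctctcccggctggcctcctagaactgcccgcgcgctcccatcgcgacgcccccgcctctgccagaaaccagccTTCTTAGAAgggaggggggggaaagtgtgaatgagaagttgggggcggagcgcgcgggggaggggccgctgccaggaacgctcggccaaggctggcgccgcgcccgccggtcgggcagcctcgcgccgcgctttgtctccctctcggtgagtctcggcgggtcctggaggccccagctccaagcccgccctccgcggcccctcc
Cish: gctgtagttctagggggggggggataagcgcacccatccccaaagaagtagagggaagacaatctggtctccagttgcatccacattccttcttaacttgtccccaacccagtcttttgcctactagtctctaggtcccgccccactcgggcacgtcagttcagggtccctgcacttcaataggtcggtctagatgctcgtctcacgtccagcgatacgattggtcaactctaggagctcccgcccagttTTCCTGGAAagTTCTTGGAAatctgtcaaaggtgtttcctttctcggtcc
The match of Socs3, TTCTTAGAA, begins at base 97 of its window, upstream of the RefSeq start. Cish has a pair, TTCCTGGAA from base 251, the RefSeq start itself, and TTCTTGGAA from base 262. Both windows lie within the GENCODE M21 spans given above, which begin further upstream. A match describes these letters only and says nothing of binding in these cells.

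Socs3, the feedback inhibitor of G-CSF and interleukin-6 (IL-6) receptor signalling, was the member that rose at 20 weeks. Its lowest, median and highest levels were 29.0, 64.9 and 88.3 CPM at 14 weeks. At 20 weeks they were 208, 266 and 463 CPM. At 26 weeks they were 41.9, 76.1 and 141 CPM. Every library of 20 weeks thus lay above every library of either other age, whereas the libraries of 14 and 26 weeks overlapped. The fitted change from 14 to 20 weeks was 2.27 ± 0.33 on the log2 scale, a 4.82-fold rise (adjusted p = 0.000379), and that from 20 to 26 weeks was -1.82 ± 0.33, a 3.53-fold fall (adjusted p = 0.00103). Between 14 and 26 weeks the difference was 0.45 ± 0.32 (95% interval -0.21 to 1.11, adjusted p = 0.447) and did not pass. Both called changes rest on many reads, with 4131, 19530 and 5613 Socs3 counts in all at the 3 ages. By unadjusted p the rise ranked 34 of the 10104 genes, and 84 of the genes called higher at 20 than at 14 weeks had a larger fold change.

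**Figure D1:**
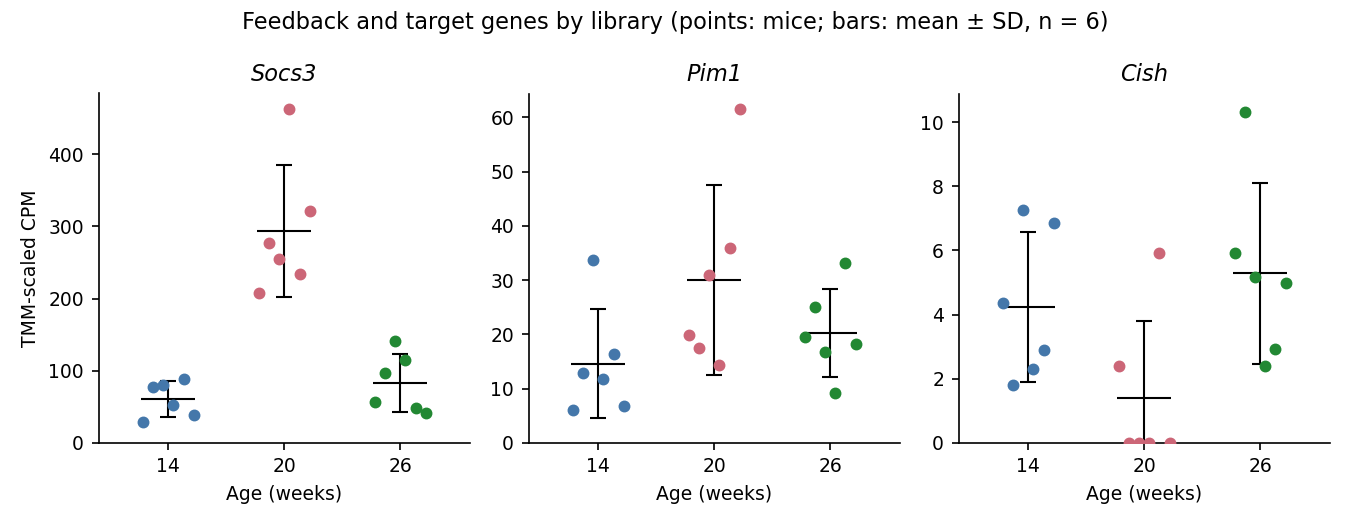
TMM-scaled CPM (linear axes from 0) of Socs3, Pim1 and Cish by age in weeks, with 1 point per mouse and bars for mean ± SD (n = 6). Socs3 stands at 208 to 463 CPM at 20 weeks, above all libraries of 14 and 26 weeks, while the ages overlap for Pim1 and Cish.

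Pim1, a serine/threonine kinase gene and a well-known STAT target, did not pass in any comparison. Its levels were 6.14, 12.3 and 33.6 CPM (lowest, median, highest) at 14 weeks, 14.3, 25.4 and 61.5 CPM at 20 weeks and 9.22, 18.9 and 33.1 CPM at 26 weeks. All 6 libraries of 20 weeks were above the median of 14 weeks, but the groups overlapped. The fitted difference of 20 from 14 weeks was 1.04 ± 0.44 (95% interval 0.13 to 1.95, adjusted p = 0.152). Without replicate 3 of 14 weeks, the highest of its group, it was 1.47 and was called (adjusted p = 0.0348). Pim1 exons share 488 bases, 14.5% of their length, with the antisense gene Gm26885, whose medians were 7.19, 14.5 and 8.29 CPM at the 3 ages. The sources used here do not give the strand setting of the counting, so reads of the pair may not be separable.

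Cish, the gene of the CIS inhibitor and a classical STAT5 target, had few counts, from 0 to 99 in a library. It was at 1.79 to 7.25 CPM at 14 weeks and 2.38 to 10.3 CPM at 26 weeks. At 20 weeks 4 of 6 libraries had 0 counts, which allows up to 0.219 to 0.301 CPM in them (3 counts, counting error only), and the other two reached 5.91 CPM at most. The whole group of 20 weeks held 89 counts, against 288 at 14 and 324 at 26 weeks. The difference of 20 from 14 weeks was -1.61 ± 1.15 (95% interval -4.02 to 0.80, adjusted p = 0.455) and that of 26 from 20 weeks 1.93 ± 1.17 (adjusted p = 0.295), so neither could be told from the spread in this fit. limma-voom with quality weights called the latter (4.10, adjusted p = 0.0235). Cish exons also share 479 bases with the antisense gene Gm17041 and 261 with Gm17040, both at a median of 0 CPM at 20 weeks.

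No other SOCS gene was called. Of 6 in the table (Socs1, Socs2 and Socs4 to Socs7), 5 could be tested and 0 passed in any comparison by edgeR, DESeq2 or limma-voom, with 0 at an unadjusted edgeR p under 0.05. Socs1, which restrains interferon receptor signalling, was at a median of 10.0 CPM at 14 weeks, 9.86 CPM at 20 weeks and 12.4 CPM at 26 weeks. Its difference of 20 from 14 weeks was 0.08 ± 0.44 (adjusted p = 0.948). The median difference of the 5 was 0.37, beside -0.02 over all genes tested. Socs2 had 5, 0 and 10 counts at the 3 ages and was not tested.

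Among all genes tested, 10.2% were called between 14 and 20 weeks, 4.93% higher and 5.27% lower, and of the 10 members 1 was higher (Socs3) and 0 lower. No JAK or STAT gene was called between those ages by edgeR, DESeq2 or limma-voom, and in edgeR 0 were at an unadjusted p under 0.05. In 26 against 14 weeks, 11% of all genes were called, 5.45% higher and 5.54% lower, while 5 members were lower and 0 higher. In 26 against 20 weeks, 16% were called, 8.03% higher and 7.98% lower, while 6 members were lower and 0 higher. The 5 lower in both were Jak1, Jak2, Stat3, Stat5b and Stat6, with Socs3 the sixth against 20 weeks. The median member changed by 0.27, -0.65 and -0.70 in the 3 comparisons, in the order given, against -0.02, 0.05 and 0.05 for all genes tested. The last 2 comparisons share the 26-week libraries and the first 2 the 14-week libraries, so they are not independent of each other. A single test of any change with age called 6 members, the same 6 genes, and 23% of all genes.

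**Figure D2:**
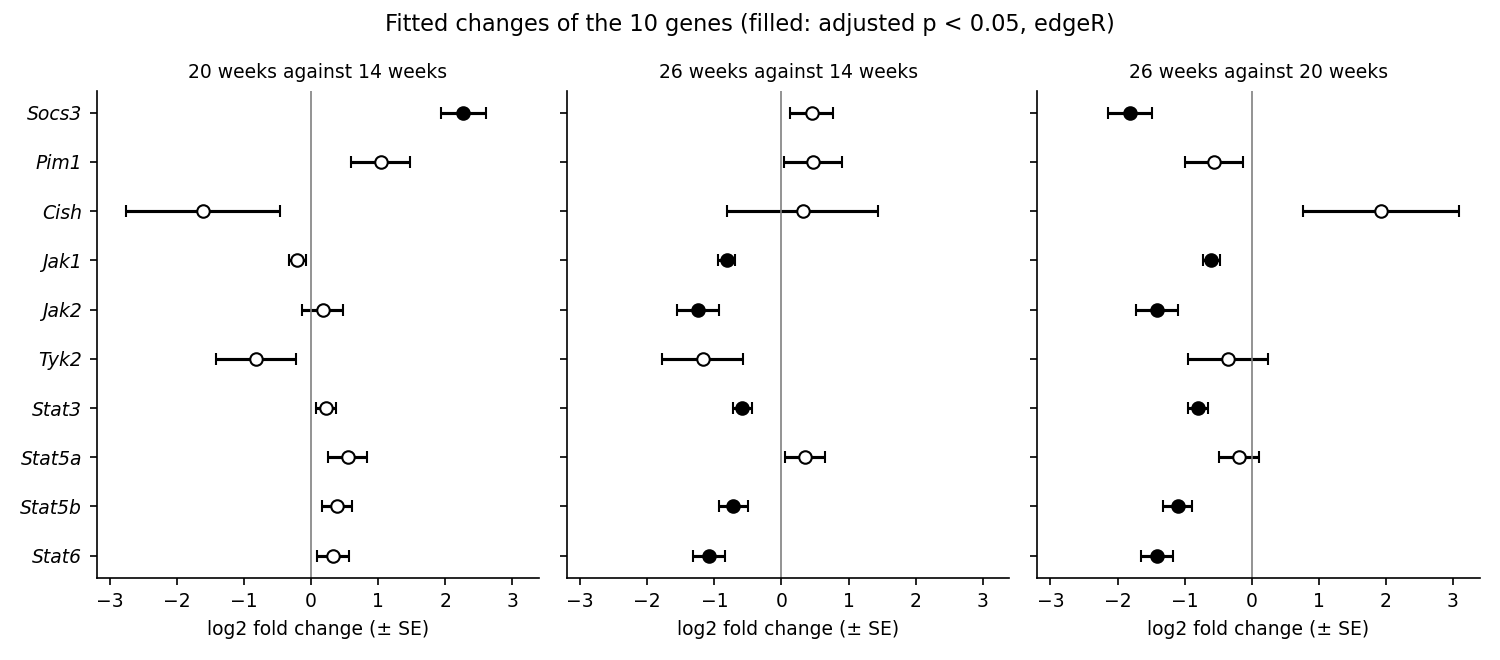
Fitted log2 fold changes of the 10 genes in the 3 comparisons of ages, with bars for ± SE and filled points for adjusted p under 0.05. One filled point, Socs3 at 2.27, stands in the comparison of 20 with 14 weeks, whereas 5 and 6 filled points lie below 0 in the comparisons of 26 weeks.

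Jak1 and Jak2, kinases that serve many cytokine receptors, were both lower at 26 weeks than at either earlier age. Jak1 ran at 565, 649 and 694 CPM (lowest, median, highest) at 14 weeks, 445, 552 and 655 CPM at 20 weeks and 298, 348 and 446 CPM at 26 weeks. No library of 26 weeks reached the lowest of 14 weeks, and 1 library, at 446 CPM, was above the lowest of 20 weeks. The fall was -0.81 ± 0.13 from 14 weeks (adjusted p = 0.00149), rank 23 of all genes by unadjusted p, and -0.61 ± 0.13 from 20 weeks (adjusted p = 0.00298). The difference of 20 from 14 weeks, -0.21 ± 0.13 (adjusted p = 0.357), did not pass, and it was 0.26 under a correction for gene length. Jak1 varied little between mice, with an SD of 8.21% of the mean at 14 weeks and 17.6% at 26 weeks.

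Jak2, the kinase of the receptors for granulocyte-macrophage colony-stimulating factor (GM-CSF) and, with Jak1, of interferon gamma, was the lowest of the called kinases per exon length. Its levels were 51.6, 77.5 and 94.6 CPM at 14 weeks, 57.2, 67.8 and 156 CPM at 20 weeks and 11.6, 28.0 and 51.6 CPM at 26 weeks. The 26-week libraries lay below all libraries of both other ages, though the highest of them, at 51.591 CPM, all but met the lowest of 14 weeks, at 51.609 CPM. The change was -1.24 ± 0.31 from 14 weeks (adjusted p = 0.0143) and -1.41 ± 0.31 from 20 weeks (adjusted p = 0.00435), or 2.36-fold and 2.66-fold lower. Jak2 at 20 weeks differed from 14 weeks by 0.17 ± 0.31 (95% interval -0.47 to 0.81, adjusted p = 0.808).

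Tyk2, the third kinase, which serves the interferon alpha and beta receptor among others, was scarce and variable. It ran from 4.48 to 41.2 CPM around a median of 12.9 CPM at 14 weeks, from 0.575 to 18.3 CPM around 7.87 CPM at 20 weeks and from 2.49 to 10.6 CPM around 7.74 CPM at 26 weeks. The ages overlapped in each pair. Its difference of 26 from 14 weeks was -1.17 ± 0.60 (95% interval -2.44 to 0.09, adjusted p = 0.255), an interval that holds both no change and a fall of the size fitted for Jak2. Of its exon bases, 554 (8.07%) are shared with the antisense gene 1700084C06Rik, whose medians were 3.05, 2.03 and 1.76 CPM at the 3 ages.

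**Figure D3:**
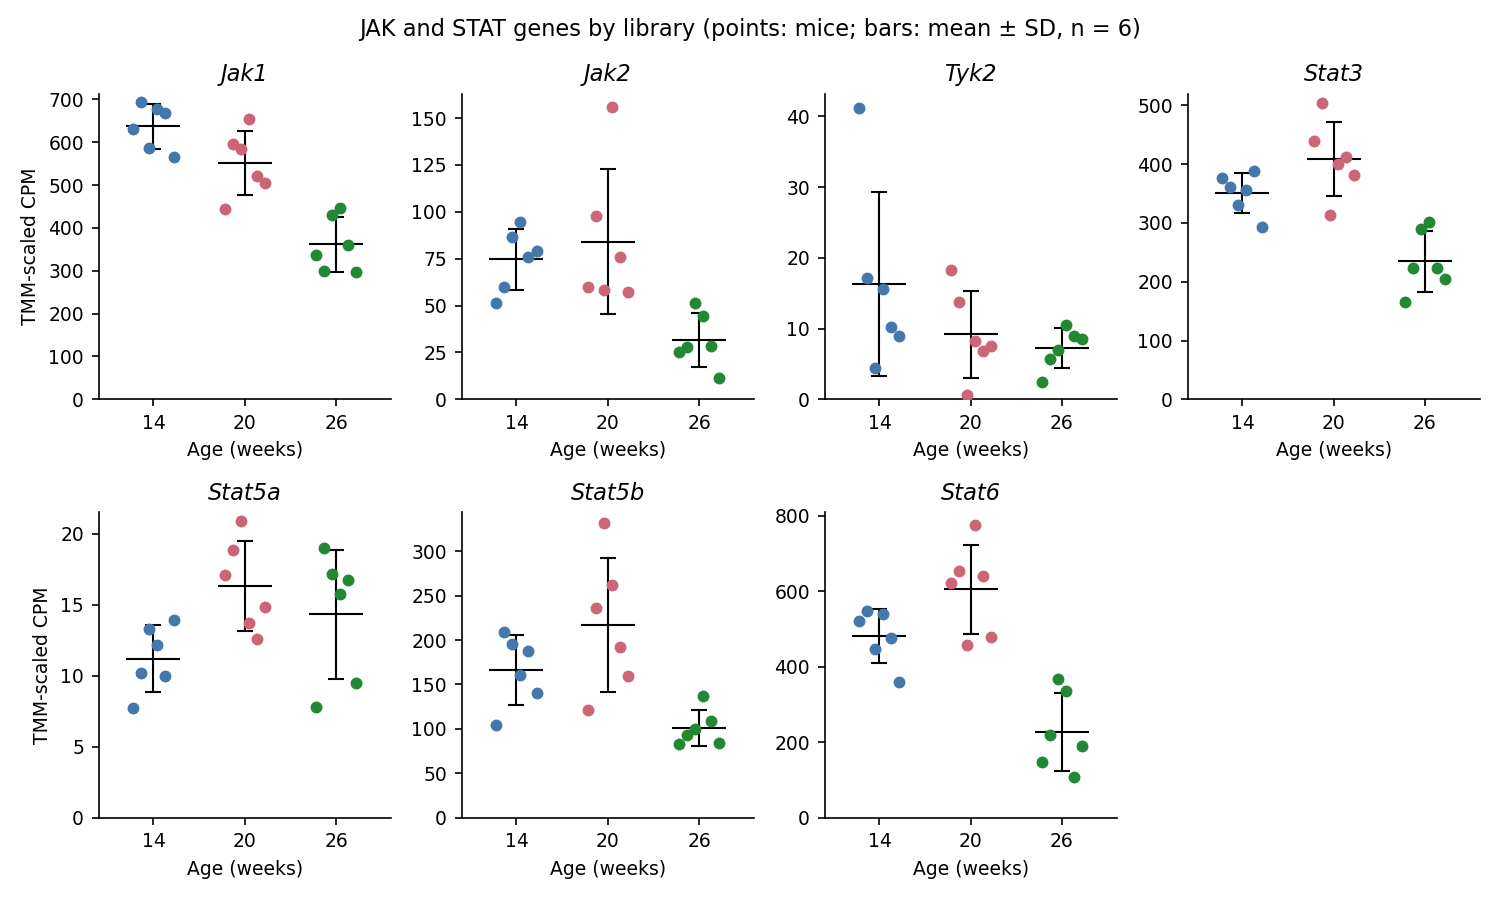
TMM-scaled CPM (linear axes from 0, different in each panel) of the JAK and STAT genes by age in weeks, with 1 point per mouse and bars for mean ± SD (n = 6). The means of Jak1, Jak2, Stat3, Stat5b and Stat6 are lowest at 26 weeks. The highest 26-week library of Jak2, at 51.591 CPM, is just under its lowest of 14 weeks, at 51.609 CPM.

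Stat6, the factor that relays IL-4, had the largest fitted fall of the called STAT genes at 26 weeks. Its lowest, median and highest levels were 360, 498 and 547 CPM at 14 weeks, 458, 630 and 776 CPM at 20 weeks and 107, 204 and 368 CPM at 26 weeks. All libraries of 26 weeks were below those of 20 weeks, and 5 of 6 were below the lowest of 14 weeks. Stat6 was 2.11-fold lower than at 14 weeks (log2 change -1.08 ± 0.24, adjusted p = 0.00719) and 2.65-fold lower than at 20 weeks (-1.41 ± 0.24, adjusted p = 0.000766). Its difference of 20 from 14 weeks was 0.33 ± 0.24 (adjusted p = 0.458).

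Stat3, the factor that relays G-CSF and IL-6, was lower at 26 weeks as well. Levels were 294, 358 and 389 CPM at 14 weeks, 313, 407 and 503 CPM at 20 weeks and 165, 224 and 301 CPM at 26 weeks. All 26-week libraries were below those of 20 weeks, and 5 of 6 below the lowest of 14 weeks. The change was -0.80 ± 0.15 from 20 weeks (adjusted p = 0.00119) and -0.58 ± 0.15 from 14 weeks (adjusted p = 0.0143). The latter call was lost without replicate 1, 2 or 6 of 26 weeks (-0.47, -0.54 and -0.52, adjusted p = 0.0579, 0.0516 and 0.0556). Stat3 at 20 weeks, where Socs3 was high, differed from 14 weeks by 0.22 ± 0.15 (95% interval -0.09 to 0.52, adjusted p = 0.413). With a correction for gene length that difference of Stat3 was 0.69 and was called (adjusted p = 0.012), while its change from 14 to 26 weeks was -0.50 and was not (adjusted p = 0.084).

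Stat5a and Stat5b are neighbours that encode closely related factors downstream of GM-CSF and other cytokines, and Stat5b alone was called. It ran at 104, 174 and 208 CPM at 14 weeks, 122, 214 and 332 CPM at 20 weeks and 83.2, 96.9 and 137 CPM at 26 weeks. Of the 26-week libraries 1 lay within the range of 20 weeks and 5 below it. The change from 20 to 26 weeks was -1.10 ± 0.22 (adjusted p = 0.00207). That from 14 weeks was -0.72 ± 0.22 (adjusted p = 0.0396) and was fragile, being lost in 15 of 30 alternatives. Among these were the runs without replicate 2, 3, 4 or 5 of 14 weeks (-0.73 to -0.64) and without replicate 1, 2, 3, 5 or 6 of 26 weeks (-0.72 to -0.63), with adjusted p up to 0.114.

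Stat5a was at 7.70 to 13.9 CPM at 14 weeks, 12.6 to 20.9 CPM at 20 weeks and 7.82 to 19.0 CPM at 26 weeks and was not called in any pair. Its difference of 26 from 14 weeks was 0.35 ± 0.29 (95% interval -0.26 to 0.97, adjusted p = 0.549), positive where that of Stat5b was negative. The difference between the 2 genes was not tested. In GRCm38 (GENCODE M21), Stat5b (minus strand), Stat5a (plus strand) and Stat3 (minus strand) lie in a row on chromosome 11, over 158810 bases from 100780731 to 100939540. The starts of Stat5b and Stat5a are 8627 bases apart, and Stat5a and Stat3 overlap by 72 bases at their ends. A read-length window of 100 bases was common to both STAT5 genes at 265 positions, 3.44% of the windows of Stat5a and 4.79% of those of Stat5b. The other 8 members shared no such window with any gene searched.

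Jak3, Stat2 and Stat4 were tested and none was called in any comparison by edgeR, DESeq2 or limma-voom, with 0 at an unadjusted edgeR p under 0.05. Stat4 ran at 18.2 to 22.2 CPM at 14 weeks and 5.81 to 20.9 CPM at 26 weeks (-0.71 ± 0.62, adjusted p = 0.573).

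Levels of different genes can be compared only per length, here as RPKM, the CPM per 1000 bases of exon. At 14 weeks the means ± SD over 6 mice were 109 ± 16.1 RPKM for Stat6 and 88.1 ± 7.23 for Jak1, whose ranges overlapped. Stat3 (36.8 ± 3.60), Stat5b (30.0 ± 7.05), Socs3 (21.0 ± 8.45) and Jak2 (14.8 ± 3.22) followed, each overlapping the next. Pim1 (4.34 ± 3.00), Tyk2 (2.37 ± 1.90), Stat5a (1.57 ± 0.33) and Cish (0.661 ± 0.364) came last, in overlapping ranges. Gaps stood between Jak1 and Stat3 and between Jak2 and Pim1.

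At 20 weeks Socs3, at 101 ± 31.7 RPKM, moved from the fifth to the second place, between Stat6 (137 ± 27.0) and Jak1 (76.2 ± 10.4), and overlapped both. At 26 weeks it was at 28.7 ± 14.0 RPKM, in the third place after Stat6 (51.8 ± 23.6) and Jak1 (50.1 ± 8.83), again overlapping its neighbours. Jak2 (6.27 ± 2.86) then lay beside Pim1 (6.04 ± 2.41), without the gap between them seen at 14 weeks. They overlapped at 20 weeks already, with Jak2 at 11.4 to 31.0 RPKM and Pim1 at 4.24 to 18.3 RPKM. The ratio of Stat5b to Stat5a was set by means of 39.2 and 2.29 RPKM at 20 weeks and 18.3 and 2.01 RPKM at 26 weeks.

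**Figure D4:**
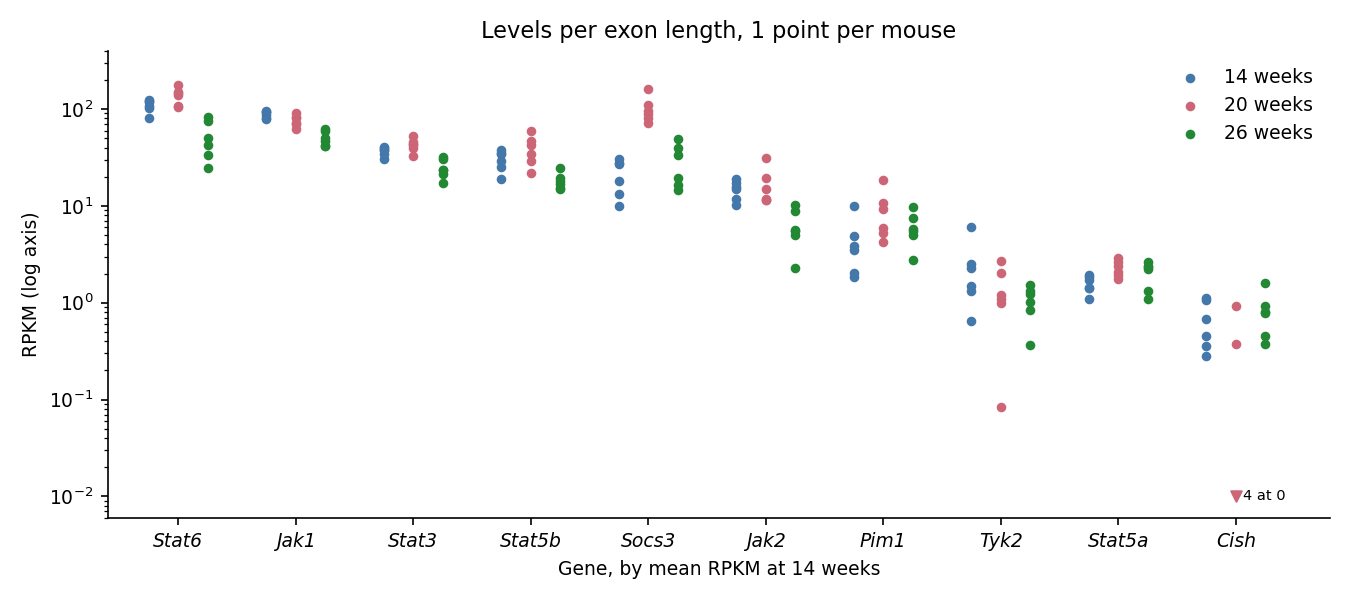
RPKM (log axis) of the 10 genes in each library, ordered by their mean at 14 weeks, with 1 point per mouse coloured by age. A triangle marks the 4 libraries of 20 weeks at 0 for Cish, and Socs3 at 20 weeks reaches the range of Stat6 and Jak1.

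Cytokine receptor genes differed between ages as well. Of 30 receptor chains listed, 27 were matched and 16 could be tested. At 20 against 14 weeks 4 were higher and 0 lower, with a median of 0.51. Over all genes tested 4.93% were higher and 5.27% lower, with a median of -0.02. At an unadjusted edgeR p under 0.05 there were 9 of the receptor chains, and DESeq2 called 8 and limma-voom 7. Csf3r, the G-CSF receptor, had a lowest, median and highest level of 1183, 1869 and 3288 CPM at 14 weeks and 3418, 4118 and 6285 CPM at 20 weeks, with no overlap (1.21 ± 0.30, adjusted p = 0.012). Il13ra1, a chain of the receptor for IL-4 and interleukin-13, rose from a median of 91.1 to 410 CPM (1.97 ± 0.37, adjusted p = 0.00214), Ifngr1, the ligand-binding chain for interferon gamma, by 1.08 ± 0.22 (adjusted p = 0.00375) and Il6ra, the IL-6 receptor, by 0.80 ± 0.18 (adjusted p = 0.00797). Il6st, the shared signalling chain of the IL-6 family, had 8, 0 and 23 counts at the 3 ages and was not tested.

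At 26 against 20 weeks 8 receptor chains were lower and 0 higher (Csf3r, Il6ra, Il4ra, Il13ra1, Il10rb, Ifnar1, Ifngr1 and Ifngr2). Over all genes tested 7.98% were lower and 8.03% higher. Csf3r fell to a median of 1234 CPM (-1.70 ± 0.30, adjusted p = 0.000915) and Il13ra1 to 84.5 CPM (-1.97 ± 0.37, adjusted p = 0.00129). Il4ra, the IL-4 binding chain upstream of STAT6 and itself a known STAT6 target, ran at 85.1, 136 and 190 CPM at 14 weeks, 115, 192 and 235 CPM at 20 weeks and 36.0, 63.5 and 127 CPM at 26 weeks. It was lower at 26 than at 20 weeks (-1.35 ± 0.26, adjusted p = 0.00186) and than at 14 weeks (-0.89 ± 0.26, adjusted p = 0.0341), the latter lost in 8 of 30 alternatives. The call of Il6ra at 26 against 20 weeks (-0.55 ± 0.18, adjusted p = 0.0482) was lost in 19 of 30.

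Of all genes tested at 26 against 14 weeks 5.45% were higher and 5.54% lower, with a median of 0.045. In that comparison 1 receptor chain was higher and 2 were lower (Il4ra and Ifngr2), with a median of -0.11 over the 16. The higher one was Il2rg, the common gamma chain, with medians of 15.4 CPM at 14 weeks and 31.4 CPM at 26 weeks (1.04 ± 0.23, adjusted p = 0.00676). With the length correction Il2rg was not called (0.71, adjusted p = 0.103). Ifngr2 differed by -0.41 ± 0.12 (adjusted p = 0.0281), and 12 of 30 alternatives did not call it. The GM-CSF receptor genes Csf2ra and Csf2rb were called in no pair of ages.

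Of 25 cytokine genes that signal through JAKs, 11 were matched, 4 could be tested and 0 were called in any comparison by edgeR. At an unadjusted edgeR p under 0.05 there were 0 in both comparisons with 14 weeks and 1 in 26 against 20 weeks, where DESeq2 called 1 and limma-voom 0. Osm, which encodes oncostatin M, ran at 94.2 to 128 CPM at 14 weeks, 0 to 124 CPM at 20 weeks and 67.7 to 95.5 CPM at 26 weeks. Its difference of 20 from 14 weeks was -0.51 ± 0.59 (adjusted p = 0.688). Il6 had 3, 35 and 0 counts at the 3 ages. Csf3 and Csf2, the genes of G-CSF and GM-CSF, were among those not matched to a symbol of the count table.

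PIAS proteins, phosphatases, the adaptor Sh2b3 and the ubiquitin ligase Cbl act on JAKs, STATs or their receptors. All 11 genes of a list of these were tested, and none was called by edgeR at 20 or 26 against 14 weeks. At 26 against 20 weeks 7.98% of all genes tested were lower and 8.03% higher, with a median of 0.05. In that comparison 5 of the 11 were lower and 0 higher (Pias1, Pias3, Ptpn1, Ptpn6 and Ptprc), with a median of -0.58. In 26 against 14 weeks 4 were at an unadjusted edgeR p under 0.05, DESeq2 called 1 and limma-voom 4, and in 20 against 14 weeks all 3 counts were 0. Ptpn1, the phosphatase PTP1B, went from a median of 458 to 303 CPM (-0.59 ± 0.15, adjusted p = 0.00885) and Ptprc, which encodes CD45, from 1779 to 900 CPM (-0.75 ± 0.19, adjusted p = 0.0107). Ptpn6, which encodes SHP-1, changed by -0.55 ± 0.17 (adjusted p = 0.0351, not called in 10 of 30 alternatives), and Pias3, the inhibitor of STAT3, by -1.32 ± 0.37 (adjusted p = 0.0182).

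Genes known as STAT3 targets outside the 10 were divided. Of 15 listed, 13 could be tested, and 4 were higher and 1 lower at 20 than at 14 weeks, with a median of 0.45. Over all genes tested 4.93% were higher and 5.27% lower, with a median of -0.02. Junb, an AP-1 factor, had 151, 228 and 347 CPM at 14 weeks and 711, 1284 and 1451 CPM at 20 weeks, with no overlap (2.25 ± 0.27, adjusted p = 0.000137), and Zfp36, which encodes the mRNA decay factor tristetraprolin, rose by 1.23 ± 0.22 (adjusted p = 0.00137). Bcl3, a co-factor of NF-kB, rose by 0.95 ± 0.22 (adjusted p = 0.00781) and Mcl1, the survival factor of neutrophils, by 0.71 ± 0.20 (adjusted p = 0.0269, lost in 7 of 30 alternatives). Prok2, which encodes the chemokine-like prokineticin 2, was lower (-1.21 ± 0.33, adjusted p = 0.0247, lost in 6 of 30), and Lrg1, Cebpb, Cebpd, Il1rn and 4 others were not called. At 26 against 20 weeks 6 were lower and 0 higher, among them Junb (-1.60 ± 0.27, adjusted p = 0.000661), Bcl6 (-0.98 ± 0.22, adjusted p = 0.00533) and Il1rn, the interleukin-1 receptor antagonist (-0.68 ± 0.17, adjusted p = 0.0108). Over all genes tested 7.98% were lower and 8.03% higher in that comparison.

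Against 14 weeks, 3 of the STAT3 targets were lower at 26 weeks and 0 higher, namely Hif1a (-1.25 ± 0.33), Bcl6 (-0.79 ± 0.22) and Prok2 (-1.12 ± 0.33), with adjusted p of 0.0192, 0.0284 and 0.0355. Each of these calls was lost in some alternatives, 5, 9 and 12 of 30. Over all genes tested 5.54% were lower and 5.45% higher at 26 against 14 weeks. Of 10 STAT5 targets, 7 could be tested. Ccnd2, a cyclin gene, was higher at 20 weeks (2.74 ± 0.50, adjusted p = 0.00206), Mcl1 is on this list too, and Ccnd3 was lower (-0.71 ± 0.14, adjusted p = 0.00333). The call of Ccnd3 was lost under corrections for gene length and for GC content. At 26 weeks Ccnd2 was again above 14 weeks (1.72 ± 0.49, adjusted p = 0.0275, lost in 10 of 30 alternatives), where Stat5b was lower, and no other gene of the STAT5 list was called by edgeR in that comparison, in which limma-voom called 4. At 26 against 20 weeks edgeR called 0 of the 7, with 3 at an unadjusted p under 0.05, DESeq2 called 2 and limma-voom 1. Of 13 STAT6 targets, 8 were matched to a symbol of the count table. Of those matched, Il4ra and Klf4 alone had enough counts to be tested, and Klf4 was not called.

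The rise of Socs3 at 20 weeks went with that of genes that respond to stimulation and to tissue handling. In a list of 16 immediate early and heat shock genes, which includes Junb and Zfp36, 14 were tested. Of these 10 were higher and 0 lower at 20 than at 14 weeks, with a median of 1.78. Over all genes tested 4.93% were higher and 5.27% lower, with a median of -0.02. The 10 of the list were Fos, Fosb, Junb, Jund, Egr1, Dusp1, Atf3, Nr4a1, Zfp36 and Btg2. The heat shock genes of the list (Hspa1a, Hspa1b and Dnajb1) were not among them, and genes of the list left untested could not be. The summed level of the 16 genes was 2111 to 4712 CPM at 14 weeks, 5849 to 15563 CPM at 20 weeks and 2534 to 7818 CPM at 26 weeks. At 26 against 20 weeks 8 of the 14 were lower, and at 26 against 14 weeks 3 were higher. Over all genes tested 7.98% were lower in the former comparison and 5.45% higher in the latter. The part of handling in the level of Socs3 was not tested.

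Markers of several other cell types were also higher at 20 weeks, and those of T cells were not. Of 12 monocyte and macrophage markers, 10 were matched and 3 were tested, all higher at 20 than at 14 weeks, with summed levels of 200 to 516 CPM at 14 weeks, 562 to 1176 CPM at 20 weeks and 212 to 516 CPM at 26 weeks. C1qa and C1qb, defining genes of macrophages, were at 0 in every library of 14 and of 26 weeks and had 2 and 3 counts in all at 20 weeks. Of 8 B cell markers 7 were matched, and their sums were 49.5 to 199, 244 to 1873 and 85.9 to 296 CPM at the 3 ages. Ighm made up most of them, with a mean of 846 CPM of 904 CPM at 20 weeks. Of 5 B cell markers tested, Ighm and Cd22 were higher at 20 than at 14 weeks and 3 were not called. All 3 plasma cell markers tested were higher at 20 and at 26 than at 14 weeks, with Jchain, the joining chain of antibodies, at 10.72 ± 1.67 and Igkc at 6.58 ± 1.74 in 20 against 14 weeks. The summed level of the 7 plasma cell markers was 129 to 186 CPM, 349 to 2075 CPM and 184 to 689 CPM at the 3 ages. Xbp1 made up nearly all of it at 14 weeks, with a mean of 154 CPM of 157 CPM. Its mean was 321 CPM of 968 CPM at 20 weeks and 220 CPM of 373 CPM at 26 weeks. T cell markers summed to 117 to 151 CPM at 14 weeks, at most 102 CPM at 20 weeks and 99.0 to 382 CPM at 26 weeks, and Cd3d, the most abundant of them, differed by -0.88 ± 0.28 between 20 and 14 weeks (adjusted p = 0.0547). The part of these cells in the level of Socs3 was not tested.

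At 26 weeks, where JAK and STAT genes were lower, the libraries differed in composition too. Ribosomal protein genes took 0.080% to 0.113% of counts at 14 weeks, 0.079% to 0.156% at 20 weeks and 0.126% to 0.356% at 26 weeks. The top 10 genes of each library together held 19.1% to 26.6%, 9.76% to 17.7% and 21.2% to 34.8% of counts at the 3 ages. The part of composition in the falls of Jak1, Jak2, Stat3, Stat5b and Stat6 was not tested. Other scaling factors and offsets ended the call of Stat5b at 26 against 14 weeks (adjusted p = 0.0569 with RLE factors, 0.0669 with upper quartile factors, 0.242 with the length correction and 0.127 with the GC correction), and the length correction ended that of Stat3.

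The genes whose pattern over the 18 libraries was most like that of Socs3 were found by the root mean square (RMS) difference of log2 CPM, each gene centred on its own mean, among 8887 candidates. They were Ctsa (0.39), Junb (0.39), Lfng (0.41), Jund (0.41) and the receptor chain Il13ra1 (0.41), beside 1.16 for Socs3 about its own mean. Ctsa encodes the lysosomal protease cathepsin A, Lfng a glycosyltransferase that modifies Notch, and Jund an AP-1 factor. Ctsa had 248 ± 110 CPM at 14 weeks, 764 ± 203 CPM at 20 weeks and 312 ± 179 CPM at 26 weeks (means ± SD).

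**Figure D5:**
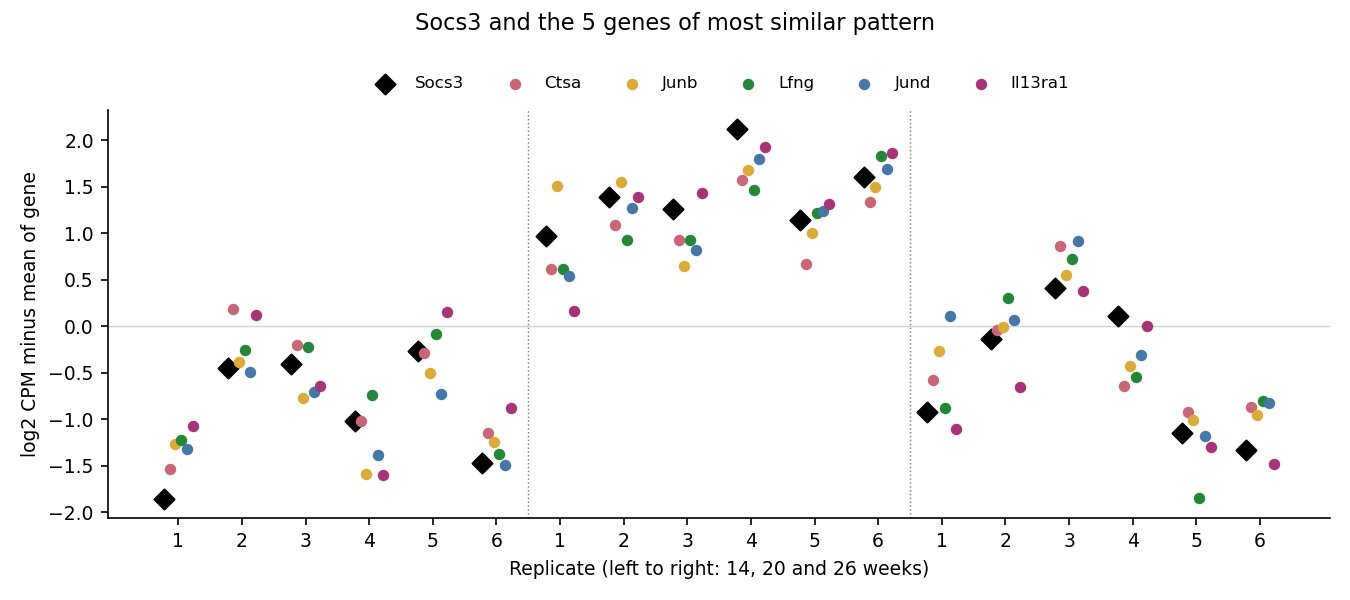
Log2 CPM of Socs3 (black diamonds) and of the 5 genes most like it, each minus its mean, in the 18 libraries, with 14, 20 and 26 weeks from left to right. All 6 genes stand above their means in every library of 20 weeks, and the RMS differences from Socs3 are 0.39 to 0.41.

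For Stat6 the nearest was Pxn, which encodes the adhesion protein paxillin (0.18, beside 0.77 for Stat6 itself), followed by Nfam1 and Stk40. For Stat3 it was Smap2 (0.19, beside 0.41), for Stat5b Map3k3 (0.25, beside 0.57) and for Jak2 Inpp5d, the gene of the phosphatase SHIP-1 (0.39, beside 0.85). Cish had no gene closer than Stfa3 (0.91, beside 1.99).

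Within an age, Socs3 was set against Pim1, Cish, Stat3 and the mean of the 13 tested early genes other than Junb over 6 mice. Of 12 such relations none passed after adjustment (exact permutation tests, two-sided, lowest adjusted p = 0.191 for Pearson's r and 0.2 for Spearman's rho). Socs3 and Pim1 had r = 0.845 at 14 weeks (exact p = 0.0319, adjusted p = 0.191, rho = 0.943), -0.226 at 20 weeks and -0.508 at 26 weeks. Socs3 and the early genes had r = 0.868 at 14 weeks (exact p = 0.0292, adjusted p = 0.191, rho = 0.771), 0.715 at 20 weeks and 0.54 at 26 weeks. Without the 2 mice of each age farthest from its median of the early genes, these values were 0.913, 0.977 and -0.377. The value at 26 weeks thus rests on those mice. Socs3 and Stat3 had r = 0.251, -0.0848 and 0.761 at the 3 ages. Without the 2 mice farthest from the median of Stat3 they had -0.765, -0.667 and 0.851, so the sign at 14 weeks rests on those mice. For Pim1 the values without the 2 mice farthest from the median of Pim1 were 0.943, -0.112 and 0.0172.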

How the data were processed

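Gene expression was measured by single-end RNA sequencing (100 nt reads, per the labels' protocols) in sorted spleen neutrophils of 18 mice, 6 at each of 3 ages, with groups and replicate numbers taken from the sample titles. The library kit was Nextera XT with 1 ng of cDNA. The authors deposited a table of raw counts, 1 row for each of 17941 symbols. The submitters' processing notes name HTSeq 0.6.1, STAR 2.4.2a, Trimmomatic 0.32, DESeq and DESeq2 1.12.3, and the build GRCm38.p4. Annotation and strand setting: not given in the sources used here. All values are whole, and every column of the table was matched to a sample.

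Genes were tested with edgeR 4.0.16 (R 4.3.3): TMM factors, filterByExpr by age and robust quasi-likelihood F tests in 1 fit of 18 libraries with age as the only term, with Benjamini-Hochberg adjustment over 10104 genes. The SE is the log2 fold change over the square root of F, and 95% intervals use the t distribution of that fit. Log2 CPM used a prior count of 2, and RPKM the union of GENCODE M21 exons. Counts have no molecular identifiers, and limits from 0 counts cover counting error only. The labels call the libraries biological replicates, and those of an age differed by more than counting error (mean chi-square per gene 27.8 to 199 over 45 pairs). Correlations between the deviations of same-numbered libraries were -0.053 to 0.136 over 18 pairs, with a median of 0.0076. Those of differently numbered libraries were -0.143 to 0.131 over 90 pairs, with a median of -0.0003. The numbers were therefore not used as pairs.

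The 10 genes, the gene lists and the tests were chosen with earlier results of these data known. The text names all members, up to 4 called genes of each pathway list in each comparison by smallest p, Socs1, Csf3r, Il4ra, Il6ra and Osm, and the genes nearest to members in pattern (RMS difference of centred log2 CPM, leaving out Gm and Rik names, pseudogenes and receptor segments). Some genes that this rule names are not reported here. Other genes named beside a count, the antisense partners, Stat4, Ifngr1 and Il10rb among them, were chosen after their values were seen. Alternatives were RLE and upper quartile factors, DESeq2 1.42.0, limma-voom (limma 3.58.1), no filter or 10 CPM in 6 libraries, only the 2 ages compared, a replicate block, immunoglobulin and other cell type genes (225) or ribosomal and mitochondrial genes (172) left out, and each of 18 libraries left out. Corrections for gene length and GC content (loess offsets, 9635 genes with a value) were added after seeing the data. The code was tested on simulated data.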

Additional observations from a re-analysis of the deposited data

Results flagged for a closer look

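In the 30 groups examined (10 genes at 3 ages), 2 held a library that stood apart from its group of 6 by the gap to its neighbour over the range (Dixon's test at 95%), and chance alone marks about 1 in 20 groups. Tyk2 in replicate 1 of 14 weeks was at 41.2 CPM, with the next library at 17.2 CPM (gap 0.655 of the range). Pim1 in replicate 3 of 14 weeks was at 33.6 CPM, with the next at 16.4 CPM (0.626 of the range). Without that library Pim1 was called higher at 20 weeks.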

How the results depend on the processing

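Over 30 alternatives, the 10 genes gave 897 values in the 3 comparisons, of which 875 stayed on their side of the threshold, 19 lost a call and 3 gained one. No call turned in sign. Of the values that were not called, 4 had the other sign than the reported value, namely Jak1 at 20 against 14 weeks with the length and GC corrections (0.26 and 0.15), Jak2 in that comparison without replicate 4 of 20 weeks (-0.10) and Tyk2 at 26 against 20 weeks with the replicate block (0.18). Socs3 stayed called at 20 against 14 weeks in all 30 (log2 change 2.09 to 2.47) and at 26 against 20 weeks (-2.26 to -1.64). Jak1, Jak2 and Stat6 kept their calls at 26 weeks in all 30 as well, some of them narrowly. At 26 against 14 weeks the highest adjusted p of any alternative was 0.0491 for Jak1, 0.0488 for Jak2 and 0.0275 for Stat6. All calls lost were those of Stat3 and Stat5b at 26 against 14 weeks. The calls gained were Stat3 (length correction, 0.69) and Pim1 at 20 against 14 weeks, and Cish at 26 against 20 weeks.

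DESeq2 called 1727, 1808 and 2553 genes in 20 against 14, 26 against 14 and 26 against 20 weeks, where edgeR called 1030, 1111 and 1617. In 26 against 14 weeks limma-voom called 2679, the fit of only those 2 ages 1710 and the length correction 571. With the length correction 2 members were called at 20 against 14 weeks and 3 at 26 against 14 weeks. Leaving out 1 library gave 702 to 1263, 652 to 1544 and 1141 to 1911 genes, and 1 to 2, 3 to 5 and 6 members. The lowest at 26 against 14 weeks were 652, 733 and 726 genes and 3 members each without replicates 1, 2 and 6 of 26 weeks. With the replicate number as a block 962, 946 and 1573 genes and 1, 5 and 6 members were called. Of 18 libraries 6 correlated best with their own number, a count for which no chance value was computed.

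The share of calls that were higher was 48.3%, 49.6% and 50.2% in the 3 comparisons, 76.9%, 26.8% and 18.1% with the length correction and 77.1%, 32.0% and 19.5% with the GC correction. In 26 against 14 weeks it was 62.0% with upper quartile factors and 59.8% with DESeq2. The corrections moved the median of all genes by 0.25 and 0.26 at 20 against 14 weeks, -0.12 and -0.13 at 26 against 14 weeks and -0.37 and -0.38 at 26 against 20 weeks. The causes were not tested. Low counts limit Cish, for which the stricter filter gave no value. Counts per library ran from 6 to 396 for Tyk2 and from 66 to 303 for Stat5a.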
